A study of Arabidopsis thaliana with 8 samples.

Results

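The genes described here encode proteins of the cytosolic ribosome, the particle that translates nuclear messenger RNAs in the cytoplasm. They were taken as the rows of the deposited count tables with 43 listed locus identifiers, out of 33602 rows in all, and all 43 were present and were tested in every comparison. Of these genes, 16 encode proteins of the small subunit and 27 proteins of the large subunit. They belong to 23 protein families. In 15 families more than 1 listed gene was present, which gave 35 paralogs, and the other 8 families had 1 listed gene each. Whole 6-day-old Arabidopsis thaliana seedlings of the pwr-2 mutant, which is in the Col-0 background, and of wild-type Col-0 were kept at 23°C with 8 hours of light and 16 hours of dark a day. One set was then moved to 27°C for 2 hours while the rest stayed at 23°C, and both were collected after those 2 hours. RNA was sequenced from pwr-2 at 23°C, Col-0 at 23°C, pwr-2 at 27°C and Col-0 at 27°C. There were 2 biological replicates of each group. POWERDRESS (PWR), the gene mutated in pwr-2, encodes a protein that works with a histone deacetylase. Each replicate was a pool of seedlings, so root, shoot and dividing cells were measured together.

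A ribosome carries 1 copy of nearly every ribosomal protein, and in Arabidopsis each of these proteins is encoded by a small family of genes. The small subunit reads the messenger RNA, and the large subunit joins amino acids. Ribosomal protein transcripts are abundant in growing tissue, and the TOR kinase pathway couples their use to nutrients and energy. Many of their promoters carry a short element called site II (TGGGCC or TGGGCT) and some an element called the telo box (AAACCCTA), both described in plant genes that are active in dividing cells. Mutants of several of these genes have pointed first leaves.

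Total counts ranged from 7379650 to 15733741 per library. The 43 genes held between 0.607% and 0.907% of them. Genes of the chloroplast and mitochondrial genomes took a share that ran from 0.0374% to 6.77% and was higher in replicate 1 than in replicate 2 of every group. PWR itself lay between 11.3 and 20.1 CPM (counts scaled to TMM library size) in the 4 pwr-2 libraries and between 43.03 and 81.7 CPM in the 4 Col-0 libraries. The replicates of a group differed by more than 2-fold in 12.4% to 30.8% of all genes, most in Col-0 at 23°C. The study calls its replicates biological and models a batch effect between them. Every main fit here included the replicate number as a block for that reason, and fits without it are among the alternatives.

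The 250 bases before the annotated gene start were read for all 43 genes from the TAIR10.1 genome. Both strands were searched, and matches may overlap, since TGGGCCCA holds TGGGCC on each strand. Site II was present before 28 of the 43 genes (65.1%), against 19.2% of 27443 protein-coding nuclear genes. At least 2 copies were present before 18 of them (41.9%), against 3280 of all genes. The telo box was present before 3 of the 43 genes (7.0%), against 4.5% of all. Among 176 other cytosolic ribosomal protein genes, site II was present before 121 (68.8%), at least 2 copies before 90 (51.1%) and the telo box before 43 (24.4%). A match is a run of letters in this window and no more.

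The promoters of both S5 genes are shown because the balance between these paralogs differed most among libraries, and those of a pair of S18 genes because their shares, given as a description with no test, did not overlap between genotypes. Capitals mark site II and telo box matches. They lie at chr3:3779546-3779795 (- strand) for RPS5A, chr2:15649472-15649721 (- strand) for RPS5B, chr1:12371555-12371804 (- strand) for AT1G34030 and chr4:6173462-6173711 (+ strand) for RPS18C.
RPS5A: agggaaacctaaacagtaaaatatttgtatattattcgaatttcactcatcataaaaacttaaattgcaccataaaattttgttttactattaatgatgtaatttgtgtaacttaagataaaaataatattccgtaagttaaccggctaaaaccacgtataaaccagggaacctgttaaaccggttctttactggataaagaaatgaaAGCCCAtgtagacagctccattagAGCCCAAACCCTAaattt
RPS5B: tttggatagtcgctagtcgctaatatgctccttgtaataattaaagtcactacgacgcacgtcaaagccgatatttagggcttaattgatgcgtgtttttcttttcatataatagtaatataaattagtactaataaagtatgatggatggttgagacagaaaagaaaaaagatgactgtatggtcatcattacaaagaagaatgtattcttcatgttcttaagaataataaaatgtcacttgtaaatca
AT1G34030: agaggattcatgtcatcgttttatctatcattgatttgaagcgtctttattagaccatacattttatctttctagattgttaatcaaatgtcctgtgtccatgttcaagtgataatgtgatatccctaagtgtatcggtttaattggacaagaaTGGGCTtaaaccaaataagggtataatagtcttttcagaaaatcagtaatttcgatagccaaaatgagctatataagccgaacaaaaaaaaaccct
RPS18C: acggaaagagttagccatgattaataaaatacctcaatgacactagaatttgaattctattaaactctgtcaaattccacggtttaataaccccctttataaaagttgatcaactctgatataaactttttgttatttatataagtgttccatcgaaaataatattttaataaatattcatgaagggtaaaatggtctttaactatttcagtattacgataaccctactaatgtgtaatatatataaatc
RPS5A carried 2 copies of site II and 1 telo box, whose first base is the last base of the site II copy nearest the gene. AT1G34030 carried 1 copy of site II. RPS5B and RPS18C carried none of these letters in the window, and neither did RPS18A, the remaining listed S18 gene. The pairs were chosen by their values in these libraries, and a link of the matches to the shares was not tested.

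Levels per gene length were compared as FPKM, the CPM divided by the deposited gene length in kilobases. The median over the 43 genes was 166.1 FPKM, against 8.67 FPKM over 19936 genes tested. All but 1 of the genes lay above the median of all genes, and 36 were in the top 10%. In the large subunit the gene for L19 (EMB2386, AT1G02780, an embryo-lethal locus) was highest, with 447 and 372 FPKM in replicates 1 and 2 of pwr-2 against 340 and 380 FPKM in Col-0 at 23°C, then 348 and 419 FPKM in pwr-2 against 402 and 355 FPKM in Col-0 at 27°C. Its levels spanned 1.31-fold over the 8 libraries, and the genotypes overlapped. In the small subunit RPS6A was highest, with a median of 252.9 FPKM. S6 is the ribosomal protein that the kinase S6K phosphorylates downstream of TOR.

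The lowest gene of the large subunit was AT2G40010, 1 of 3 genes for P0, the base of the ribosomal stalk. At 23°C it had 6 and 26 counts in pwr-2 against 1 and 41 counts in Col-0, and at 27°C 3 and 21 counts in pwr-2 against 11 and 27 counts in Col-0. The median was 1.079 FPKM, and the first replicate was the lower in every group. Another P0 gene, AT3G09200, was among the highest of the 43 at 339 FPKM. The lowest gene of the small subunit was AT3G57490, 1 of 3 genes for S2, at 10.4 FPKM. Within families the listed paralogs were thus far from equal. RPL3A, whose protein lines the peptidyl transferase center, had 323 FPKM and its paralog RPL3B 22.6 FPKM. Genes not described further, all above the median of all genes, were RPS6B, RPS13A, RPL23AB, AT3G53870 (S3), AT5G03850 (S28), RPL18 and EMB2296 (L8).

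**Figure D1:**
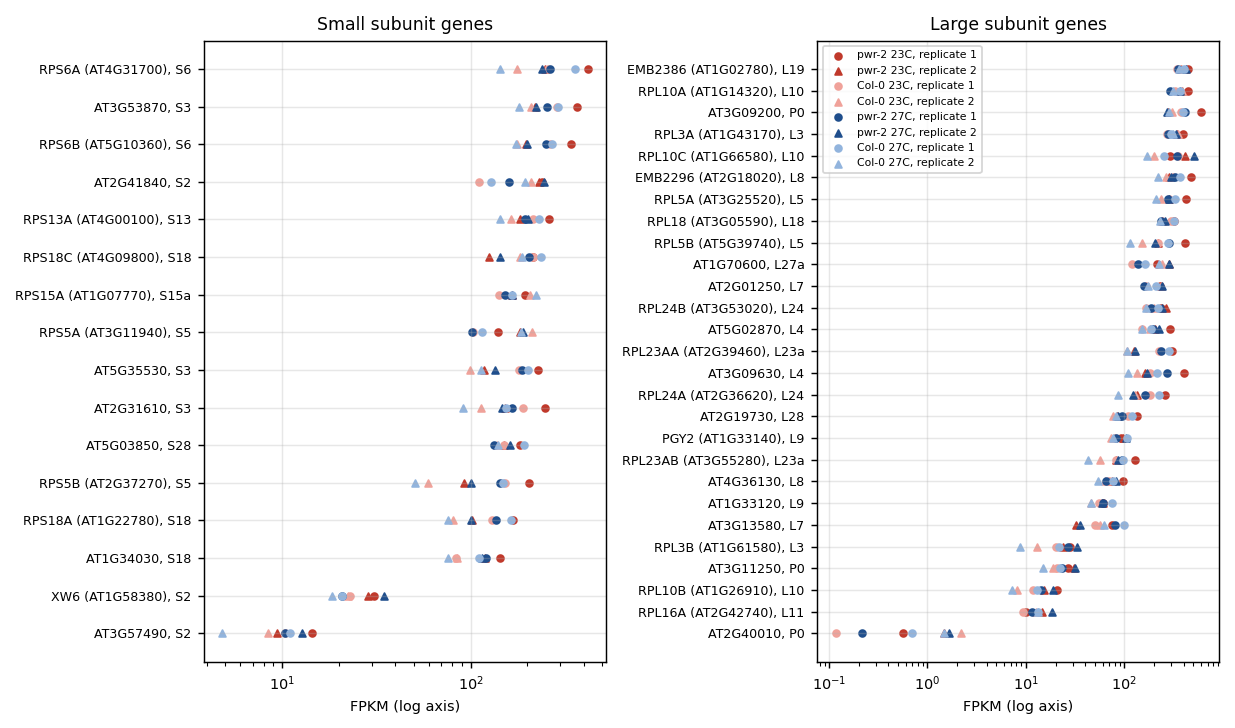
Level of each gene in FPKM (log axis) in each of the 8 libraries, with small subunit genes left and large subunit genes right, ordered by their median. Circles are replicate 1 and triangles replicate 2. EMB2386 leads the large subunit at a median of 376 FPKM, AT2G40010 is last at 1.079 FPKM, and RPS6A leads the small subunit at 252.9 FPKM.

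The comparison of pwr-2 with Col-0 at 23°C asks how the mutant differs in seedlings that were not warmed. Ribosomal protein transcripts were mostly higher in pwr-2, with 41 of 43 fold changes above 0. Their median log2 fold change was 0.31, against -0.02 over all genes tested, and 32 genes were higher in both replicate pairs, against 25.1% of all genes. No gene was lower in both pairs, against 26.2% of all genes. Both subunits gave like medians, 0.30 over 16 small subunit genes and 0.34 over 27 large subunit genes. None passed the test, in a comparison where edgeR called 0% of all 19170 genes at an adjusted p under 0.05. DESeq2 with the same block called 0 of the 43 genes too, and 1 had an unadjusted p under 0.05 in edgeR, where 1.79% of all genes did so in this direction and 2.73% in the other.

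The difference was larger between the first replicates, with a median of 0.46 over the 43 genes, than between the second, with 0.19. In 12 genes both pwr-2 libraries lay above both Col-0 libraries, with no tolerance set for near ties, against 13.4% of all genes, and in none did both lie below, against 13.9%. They were AT5G02870, RPL5A, AT1G34030, RPL10B, RPL3B, PGY2, AT1G33120, RPL24B, AT3G11250, AT4G36130, XW6 and AT2G41840. The largest fold change among genes higher in both pairs was that of RPL10B. L10 joins the large subunit late in its assembly. RPL10B had 18.1 and 13.5 CPM in pwr-2 and 10.3 and 7.17 CPM in Col-0, a log2 fold change of 0.86 (standard error 0.277, Benjamini-Hochberg adjusted p = 0.976 in the quasi-likelihood test of edgeR). The genotypes did not overlap.

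AT3G09630, a gene for L4, a protein that lines the exit tunnel of the large subunit, had 651 and 261 CPM in pwr-2 and 290 and 214 CPM in Col-0. Its high value came from replicate 1 of pwr-2 alone, and the genotypes overlapped. The log2 fold change was 0.72 (standard error 0.454, adjusted p = 0.976, edgeR), and without that library it was 0.41. RPL5B, a gene for L5, which binds 5S ribosomal RNA, had 539.5 and 286 CPM in pwr-2 and 291 and 199 CPM in Col-0. Here too the second pwr-2 library lay below the first Col-0 library, and the log2 fold change was 0.70 (standard error 0.397, adjusted p = 0.976, edgeR). RPS18C had the largest fold change below 0, at -0.28, with nearly equal first replicates.

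At 27°C the comparison of pwr-2 with Col-0 gave a less even picture. Over the 43 genes the median was 0.05 on the log2 scale, against -0.01 over all genes, and 32 were above 0. The replicate pairs went opposite ways, with medians of -0.19 in the first and 0.45 in the second, and 11 genes were higher and 3 lower in both pairs, against 31.6% and 32.2% of all genes. None passed the edgeR threshold, where 1.05% of 19324 genes did, and none passed in DESeq2. At an unadjusted p under 0.05, 2 were higher, where 8.68% of all genes were, and none lower, where 8.17% were. The median turned to -0.13 without replicate 2 of pwr-2 and to -0.07 without replicate 2 of Col-0, and it was 0.29 without replicate 1 of pwr-2 and 0.33 without replicate 1 of Col-0.

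The 2 genes were RPL3B and RPL10C. RPL3B had 36.4 and 44.2 CPM in pwr-2 and 29.1 and 11.8 CPM in Col-0 at 27°C, a log2 fold change of 1.09 (standard error 0.415, adjusted p = 0.255, edgeR). The genotypes did not overlap, and replicate 2 of Col-0 was the lowest library. Without a library the fold change lay between 0.58, without replicate 2 of pwr-2, and 1.68, without replicate 1 of Col-0. RPL10C, which is also annotated as a senescence associated gene (SAG24), had 301 and 454 CPM in pwr-2 and 224 and 150.5 CPM in Col-0. Its log2 fold change was 0.999 (standard error 0.382, adjusted p = 0.259, edgeR), and it was 0.56 without replicate 2 of pwr-2.

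In 7 genes both pwr-2 libraries lay above both Col-0 libraries at 27°C, against 19.9% of all genes, and in 1, RPS15A, both lay below, against 20.2%. Both shares of the 43 genes were below this background. RPS15A, for a small subunit protein, had 110.7 and 120.8 CPM in pwr-2 and 121.1 and 161 CPM in Col-0. Its first replicates differed little, and the log2 fold change was -0.285 (standard error 0.281, adjusted p = 0.699, edgeR). AT3G13580, for L7, had 136 and 59.4 CPM in pwr-2 and 169 and 104 CPM in Col-0. It was lower in both pairs, with a log2 fold change of -0.57 (standard error 0.292, adjusted p = 0.401, edgeR), while the genotypes overlapped. Without replicate 2 of pwr-2 its fold change was -0.25.

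**Figure D2:**
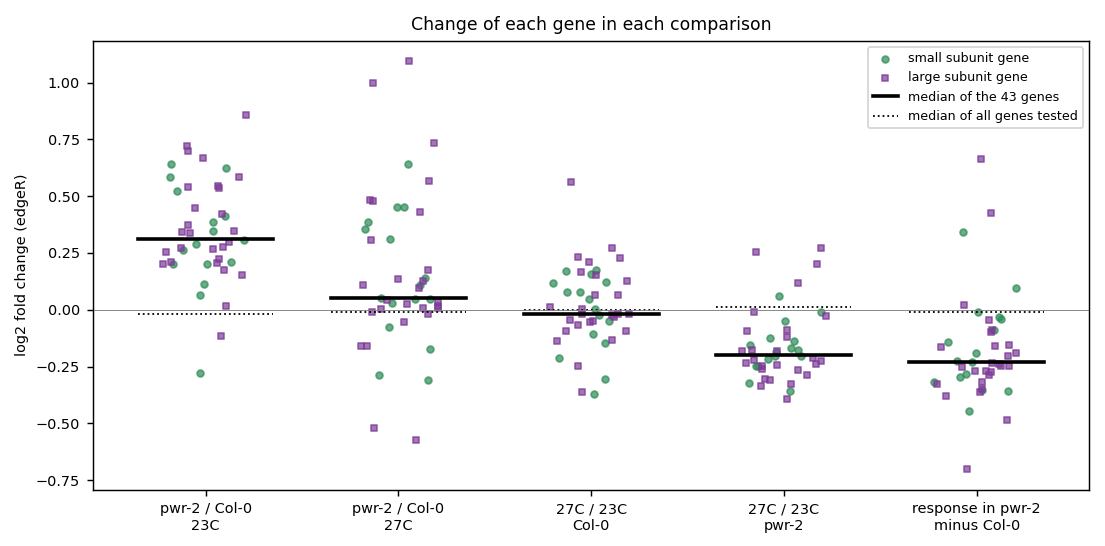
Log2 fold change of each of the 43 genes in 4 comparisons, and the difference between the 2 responses to 27°C. Circles are small subunit genes, squares large subunit genes, thick lines the median of the 43 genes and dotted lines that of all genes tested. At 23°C nearly all points lie above 0 with a median of 0.31, and in pwr-2 warming gives a median of -0.20. No point passed the edgeR threshold.

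Averaged over both temperatures, pwr-2 against Col-0 gave a median log2 fold change of 0.18, against -0.01 over all genes, with 38 of 43 above 0. By the mean of the temperatures 31 genes were higher in both replicates, against 28.5% of all genes, and 1 was lower, against 29.1%. None passed in edgeR, where 0% of 19936 genes did, or in DESeq2, and 7 had an unadjusted p under 0.05, all higher in pwr-2, where 7.99% of all genes were higher and 9.44% lower. The lowest adjusted p in edgeR was 0.208. The mutant was higher in all 4 replicate pairs for 10 genes, against 11.9% of all genes, and lower in all 4 for 0 genes, against 12.5%. The 23°C and 27°C pairs with the same replicate number are not independent. Between these temperatures, replicate differences of the 43 genes correlated at r = 0.920 in pwr-2 and 0.858 in Col-0. Agreement over all 4 pairs or libraries of a genotype thus counts for less than 4 separate ones. The 10 genes were AT3G09630 and AT5G02870 (L4), RPL5B, AT1G34030, RPL10B, RPL3B, AT3G11250 (P0), AT2G31610 (S3), XW6 and AT2G41840 (S2). The first pair of XW6 at 27°C was nearly equal, with a log2 difference of 0.003. In 5 genes, AT5G02870, AT1G34030, RPL10B, RPL3B and AT3G11250, all 4 pwr-2 libraries lay above all 4 Col-0 libraries, against 3.14% of all genes, and in none did they lie below, against 3.38%. Site II was present before 8 of the 10 genes, against 28 of all 43.

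RPL3B, the minor L3 gene, had 37.9 and 32.2 CPM in pwr-2 and 27.5 and 17.5 CPM in Col-0 at 23°C, beside the values at 27°C above. Its log2 fold change over both temperatures was 0.89 (standard error 0.266, adjusted p = 0.216 in edgeR, and 0.0645 in DESeq2). RPL10B, the minor L10 gene, had 12.4 and 16.5 CPM in pwr-2 and 11.4 and 6.33 CPM in Col-0 at 27°C. Over both temperatures its log2 fold change was 0.82 (standard error 0.234, adjusted p = 0.208 in edgeR, and 0.0918 in DESeq2). Both genes were low in all libraries, with medians of 22.6 and 13.6 FPKM, and in both the lowest library was replicate 2 of Col-0 at 27°C. The fold changes without each library in turn lay between 0.62 and 1.17 for RPL3B and between 0.55 and 1.06 for RPL10B.

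Among the S18 genes the fold changes had opposite signs, and none passed. S18 sits at the head of the small subunit, and RPS18A is the pointed first leaf gene PFL. AT1G34030 had 110.4 and 92.1 CPM in pwr-2 and 63.9 and 64.7 CPM in Col-0 at 23°C, and 92.9 and 88.7 CPM in pwr-2 and 84.7 and 58.3 CPM in Col-0 at 27°C. All 4 pwr-2 libraries were above all 4 Col-0 libraries, and the log2 fold change over both temperatures was 0.50 (standard error 0.154, adjusted p = 0.22, edgeR). RPS18C had 171.7 and 100.3 CPM in pwr-2 and 171.4 and 146 CPM in Col-0 at 23°C, and 164 and 114 CPM in pwr-2 and 190 and 149 CPM in Col-0 at 27°C. Its first replicates at 23°C were nearly equal and the genotypes overlapped, with a log2 fold change of -0.28 (standard error 0.163, adjusted p = 0.408, edgeR).

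**Figure D3:**
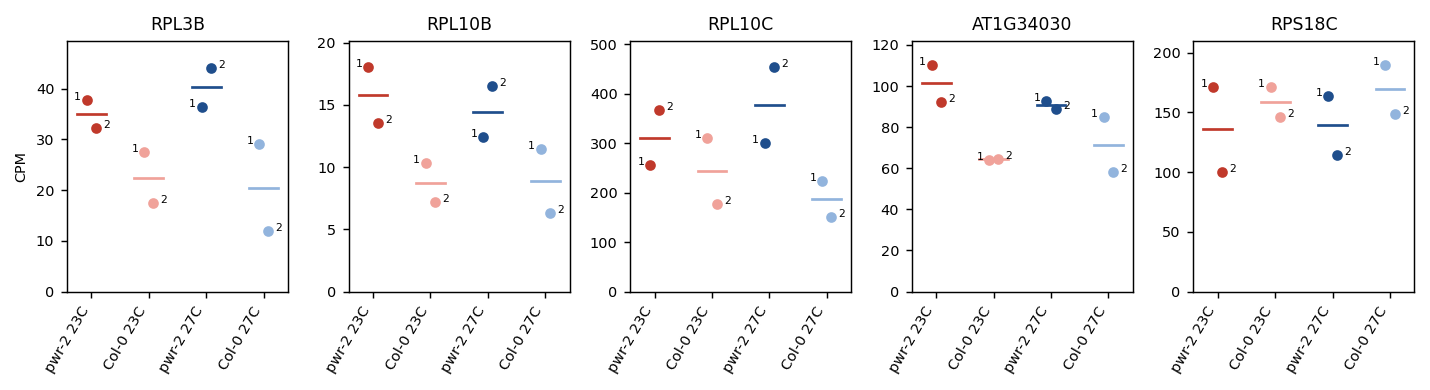
CPM of RPL3B, RPL10B, RPL10C, AT1G34030 and RPS18C in the 8 libraries, with the replicate number beside each point and a bar at the mean of each group (n = 2). RPL3B, RPL10B and AT1G34030 are higher in every pwr-2 library than in every Col-0 library, while RPL10C and RPS18C overlap between genotypes.

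The summed level of 17 dividing cell markers was 251 and 245.5 CPM in pwr-2 and 171 and 144 CPM in Col-0 at 23°C, and 255 and 262.5 CPM in pwr-2 and 227 and 113 CPM in Col-0 at 27°C, so all 4 pwr-2 libraries lay above all 4 Col-0 libraries. At 23°C the medians of the markers were 0.08 in the first pair and 0.71 in the second, where the 43 genes had 0.46 and 0.19. At 27°C the pair medians were 0.08 and 1.36 for the markers and -0.19 and 0.45 for the 43 genes. There the second pair was the higher in both lists. The median fold changes at 27°C were 0.66 for the markers and 0.05 for the 43 genes. Over both temperatures all 17 fold changes were above 0, with a median of 0.39 and pair medians of 0.09 and 0.97. Of the markers 9 were higher in both replicates, against 28.5% of all genes, and none passed the threshold. Root markers were below 0 in 12 of 12 over both temperatures, with a median of -0.64. Only 4 were lower in both replicates, against 29.1% of all genes, and the pair medians of the root markers were -0.06 and -0.85. Their medians were -0.18 at 23°C and -0.99 at 27°C, over 10 markers tested, and their summed levels overlapped, between 1926 and 2714 CPM in pwr-2 and between 2346 and 3822 CPM in Col-0. The part of either marker list in the ribosomal protein levels was not tested, and in whole seedlings fewer cells of a type and less RNA per cell cannot be told apart.

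On warming of Col-0 for 2 hours the 43 genes showed no common direction. Their median was -0.02 on the log2 scale, against 0.00 over all genes tested, with 21 above 0. The replicate pairs again went opposite ways, with medians of 0.21 and -0.19, and the sign of the median changed with the library left out, from -0.17 without replicate 1 at 27°C to 0.19 without replicate 2 at 27°C. No gene passed in edgeR, where 0% of 19386 genes did, or in DESeq2, and none had an unadjusted p under 0.05, where 1.65% of all genes were higher and 2.25% lower. The level was higher in both pairs for 10 genes, against 27.2% of all genes, and lower for 4, against 25.2%. In 2 genes both libraries at 27°C lay above both at 23°C, against 9.35% of all genes, and in 1 both lay below, against 8.95%.

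The largest positive difference was that of AT3G13580, which had 169 and 104 CPM at 27°C and 84.4 and 94.7 CPM at 23°C, a log2 fold change of 0.56 (standard error 0.311, adjusted p = 0.943, edgeR). The libraries did not overlap, but the difference came mostly from replicate 1, and without replicate 1 at 23°C the fold change was -0.03. RPL16A, for L11, had 9.998 and 10.01 CPM at 27°C and 6.98 and 9.57 CPM at 23°C. RPL10C had 224 and 150.5 CPM at 27°C and 311 and 177 CPM at 23°C. Its log2 fold change was -0.36 (standard error 0.269, adjusted p = 0.943, edgeR) and turned to 0.185 without replicate 1 at 23°C. AT2G31610, for S3, a protein at the entry of the messenger RNA channel, had 169 and 99.8 CPM at 27°C and 206 and 124 CPM at 23°C. XW6, for S2, had 23.1 and 20.5 CPM at 27°C and 25.4 and 24.7 CPM at 23°C, and PGY2, for L9, had 101.8 and 72.8 CPM at 27°C and 77.0 and 68.8 CPM at 23°C. In XW6 the temperatures did not overlap, and in AT2G31610 and PGY2 they did.

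In pwr-2 the replicates differed in their response to warming. The median log2 fold change of the 43 genes was -0.20, against 0.01 over all genes tested, with 38 of 43 below 0. Replicate 1 gave a median of -0.47, while replicate 2 gave 0.06. In 14 genes the level was lower in both pairs, against 31.3% of all genes, and in 4 genes (RPL5A, RPL10A, RPL3A and RPS15A) both libraries at 27°C lay below both at 23°C, against 15% of all genes. Neither share of the 43 genes stands clear above its background. In replicate 2 the temperatures were nearly tied for RPS15A, with 120.8 CPM at both, and for RPL5A, with 358.1 CPM at 27°C and 359.7 CPM at 23°C. In 3 genes the level was higher in both pairs, against 33.3% of all genes, and in none did both libraries at 27°C lie above, against 17.3%. No gene passed in edgeR, where 0.42% of 19050 genes did, or in DESeq2, and none had an unadjusted p under 0.05, where 10.6% of all genes were higher and 7.49% lower. Without replicate 1 at 27°C the median was 0.01, and without replicate 1 at 23°C it was -0.07. Marker lists are given for the same comparison. Dividing cell markers had a median of 0.30, and root markers had a median of -0.86 over 9 tested, with 1 called lower, and 6 of 7 green shoot markers were lower in both pairs, with a median of -0.17. Their part in the values of the 43 genes was not tested.

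RPL24A had 127 and 95.2 CPM at 27°C and 199.9 and 103.5 CPM at 23°C in pwr-2, a log2 fold change of -0.39 (standard error 0.200, adjusted p = 0.388, edgeR), which was -0.12 without replicate 1 at 27°C and -0.66 without replicate 2 at 27°C. RPS6A had 267 and 242 CPM at 27°C and 424 and 250 CPM at 23°C. Both had their highest value in replicate 1 at 23°C, and the fold change of RPS6A turned to 0.01 without replicate 1 at 27°C. RPL10A, also known as SAC52, had 285 and 353 CPM at 27°C and 431 and 370 CPM at 23°C, and its temperatures did not overlap. Its log2 fold change of -0.335 was -0.17 without replicate 1 at 23°C and -0.14 without replicate 1 at 27°C. RPL10C was higher at 27°C in both pairs, with 301 and 454 CPM at 27°C and 255 and 366 CPM at 23°C, a log2 fold change of 0.27 (standard error 0.155, adjusted p = 0.435, edgeR). The temperatures overlapped, and the sign turned, to -0.05 without replicate 1 at 23°C and to -0.22 without replicate 2 at 27°C.

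The difference between the responses to 27°C, pwr-2 less Col-0, had a median of -0.23 over the 43 genes, against -0.01 over all genes, with 5 of 43 above 0. Replicate 1 gave -0.64, whereas replicate 2 gave 0.25. In both replicates 1 gene was above 0, against 28.6% of all genes, and 5 were below, against 29.5%. No gene passed in edgeR, where 0% of 19936 genes did, or in DESeq2, and none had an unadjusted p under 0.05, where 3.55% of all genes were higher and 1.04% lower. RPL10C had the largest value among genes that kept their sign in both replicates, with 0.66 (standard error 0.596, adjusted p = 0.948, edgeR). It was lower at 27°C in both pairs of Col-0 and higher at 27°C in both pairs of pwr-2. The value was 0.08 when Col-0 23°C replicate 1 was left out and 1.10 when pwr-2 23°C replicate 2 was. AT2G19730, for L28, had the value -0.36 (standard error 0.296, adjusted p = 0.948, edgeR), with 71.8 and 64.8 CPM at 27°C and 100.9 and 63.5 CPM at 23°C in pwr-2, and 91.3 and 62.6 CPM at 27°C and 82.8 and 57.3 CPM at 23°C in Col-0. Averaged over both genotypes, warming gave a median of -0.09. By the mean of the genotypes 4 genes were higher in both replicates, against 28.8% of all genes, and 23 lower, against 27%. No gene passed in edgeR, where 0% did, or in DESeq2, none had an unadjusted p under 0.05, where 2% of all genes were higher and 1.8% lower, and none separated all libraries, where 0.722% lay above and 0.617% below. Over the 4 single pairs, 2 genes were always higher (RPL16A and AT3G13580, against 8.56% of all genes) and 1 lower (AT2G31610, against 8.25%). The 4 pairwise comparisons share libraries, so their values for a gene are not independent.

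The other genes of the translation machinery are given for comparison. Of 176 other cytosolic ribosomal protein genes, 163 were tested at 23°C, and their median log2 fold changes were 0.33 in pwr-2 against Col-0 at 23°C, 0.08 at 27°C, 0.02 on warming in Col-0 and -0.19 on warming in pwr-2, with none called in any of these. The values of the 43 genes were 0.31, 0.05, -0.02 and -0.20 in the same order. The 28 ribosome assembly genes, which process ribosomal RNA and build the subunits, had medians of 0.42 at 23°C and 0.39 at 27°C in pwr-2 against Col-0. Their pair medians were 0.38 and 0.47 at 23°C but -0.19 and 0.78 at 27°C. At 27°C 8 of them were higher and 2 lower in both pairs, against 31.6% and 32.2% of all genes. The 6 of 7 TOR pathway genes that were tested had medians of -0.12 and 0.23, and none of either list was called.

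Nuclear genes for the plastid ribosome, the separate ribosome of the chloroplast, followed another order. Their 37 members had a median of 0.42 in pwr-2 against Col-0 at 23°C and -0.40 at 27°C, of 0.58 on warming in Col-0 and -0.26 on warming in pwr-2. At 23°C their pairs went opposite ways, with medians of 1.25 and -0.45. The pair medians were 0.04 and -0.81 at 27°C, so that difference came from the second pair. On warming they were 1.07 and 0.12 in Col-0, and -0.22 and -0.29 in pwr-2. Summed CPM of the 43 genes divided by that of the 37 plastid genes was 0.743 and 0.986 in pwr-2 and 1.25 and 0.644 in Col-0 at 23°C, and 0.623 and 1.25 in pwr-2 and 0.703 and 0.530 in Col-0 at 27°C. The genotypes overlapped.

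The share of each paralog in its family, computed from counts per gene length over the listed genes, showed where the balance varied. It ranged most in the S5, L10, L7, S18 and L24 families. RPS5A, an essential gene in early embryos, gave 40.7% and 66.4% of S5 in replicates 1 and 2 of pwr-2 against 40.3% and 77.9% in Col-0 at 23°C, then 41.6% and 65.5% in pwr-2 against 43.6% and 78.6% in Col-0 at 27°C. RPS5B gave the rest. RPS5A was thus the minor paralog in every replicate 1 and the major paralog in every replicate 2, in both genotypes and at both temperatures. RPS5A had 148 and 193 CPM, and RPS5B 206.5 and 93.4 CPM, in pwr-2 at 23°C.

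RPL24A held between 46.9% and 52.4% of L24 in replicate 1 and between 33.5% and 38.9% in replicate 2. L24 lies at the interface of the subunits, and its paralog RPL24B (STV1) acts in translation of messenger RNAs with upstream reading frames. Of the 35 paralogs, 7 had a higher and 9 a lower share in every replicate 2 library than in every replicate 1 library, and these came from 9 of the 15 families. The families are the units here, since the shares of a family sum to a whole and those of a pair mirror each other. By genotype, only S18 of the 15 families held shares that did not overlap, 1 higher and 1 lower in every pwr-2 library, and by temperature none did. No background over other gene families was computed for these counts, so nothing is read from the S18 separation.

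AT1G34030 gave 27.3% and 34.5% of S18 in pwr-2 and 19.4% and 24.2% in Col-0 at 23°C, and 26.2% and 32.2% in pwr-2 and 21.5% and 22.5% in Col-0 at 27°C. RPS18C gave 40.7% and 36.1% in pwr-2 and 50.1% and 52.6% in Col-0 at 23°C, and 44.4% and 39.8% in pwr-2 and 46.4% and 55.0% in Col-0 at 27°C. No test was made on the shares. In L10, RPL10A held between 40.5% and 64.7% and RPL10C between 33.9% and 57.4%. RPL10C exceeded RPL10A in replicate 2 of pwr-2 at 23°C, in both replicates of pwr-2 at 27°C and in replicate 1 of Col-0 at 23°C. In L7, AT2G01250 held between 66.5% and 88.1%, and AT3G13580 the rest.

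**Figure D4:**
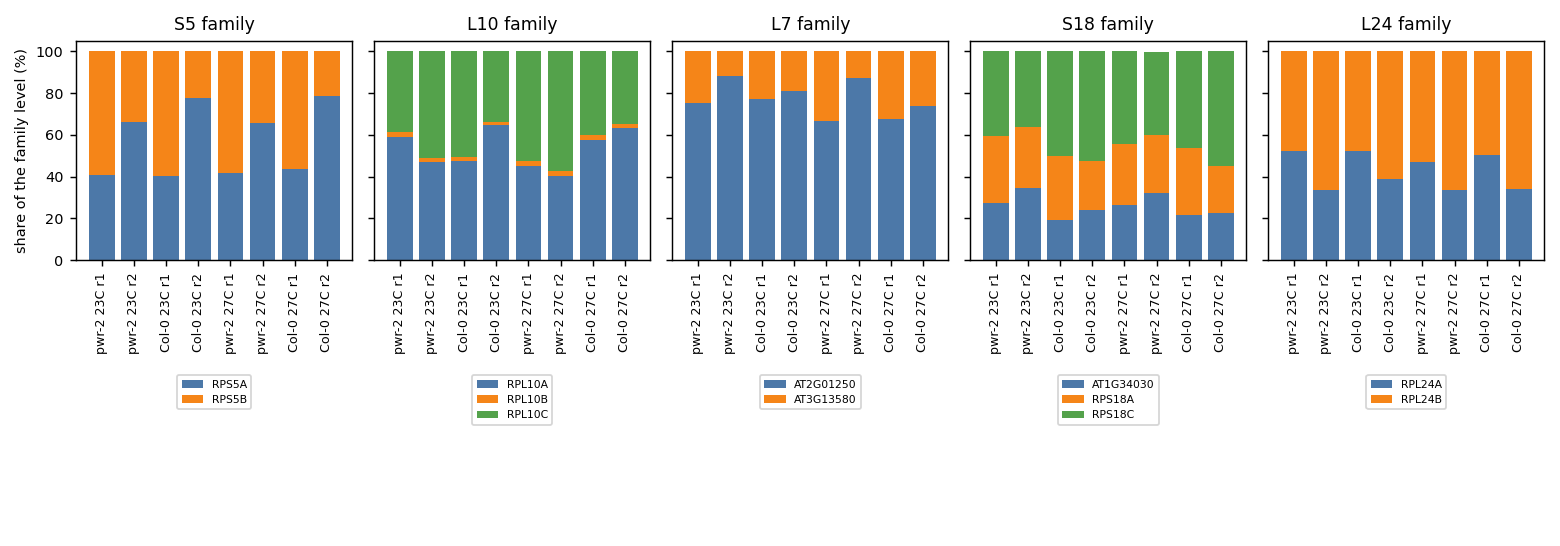
Share (%) of each listed paralog in the summed level per gene length of its family, in the 8 libraries (r1 and r2 are the replicates). In the S5 family RPS5A is between 40.3% and 43.6% in every replicate 1 and between 65.5% and 78.6% in every replicate 2.

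The replicate number was therefore compared directly, a test added after the data were seen. Replicate 2 was lower than replicate 1 in all 4 groups for 17 of the 43 genes and higher for 4, against 21% and 21.6% of all genes. Of the 4, RPL16A was nearly equal in Col-0 at 27°C. In the fit of all 8 libraries the median was -0.34, against 0.01 over all genes, and 4 genes were lower in replicate 2 at an adjusted p under 0.05, where 8.22% of all 19936 genes passed, 4.87% lower and 3.35% higher. RPL23AA, for L23a at the mouth of the exit tunnel, had 479 and 196 CPM in pwr-2 and 351.5 and 166 CPM in Col-0 at 23°C, and 370.0 and 199 CPM in pwr-2 and 443 and 167.5 CPM in Col-0 at 27°C (log2 difference -1.17, standard error 0.172, adjusted p = 0.0295, edgeR). RPS5B had a log2 difference of -1.14 (adjusted p = 0.0389, edgeR). AT5G35530, for S3, had -0.78 (adjusted p = 0.0445, edgeR) and RPS18A -0.74 (adjusted p = 0.0496, edgeR).

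RPS5A had a difference of 0.75 (adjusted p = 0.0539, edgeR), which did not pass. The differences between replicates of the 43 genes correlated between any pair of groups at r from 0.706 to 0.920, against 0.260 to 0.654 over 19936 genes. Between the temperatures of a genotype r was 0.920 in pwr-2 and 0.858 in Col-0, against 0.561 and 0.654 over all genes. Between genotypes r ran from 0.706 to 0.762, against 0.260 to 0.378 over all genes. The genes share libraries and scaling and are not independent. The sets also differed in level, with medians of 166.1 and 8.67 FPKM, and the part of level in r was not tested. In 3 to 9 of the 43 genes, depending on the group, the replicates differed by more than 2-fold. The share of organelle genes differed in the same order, with 6.49% in replicate 1 and 0.0374% in replicate 2 of pwr-2 at 23°C, 6.77% and 0.296% in Col-0, and at 27°C 3.295% and 2.12% in pwr-2 and 1.28% and 0.397% in Col-0. Its part in the replicate differences was not tested.

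**Figure D5:**
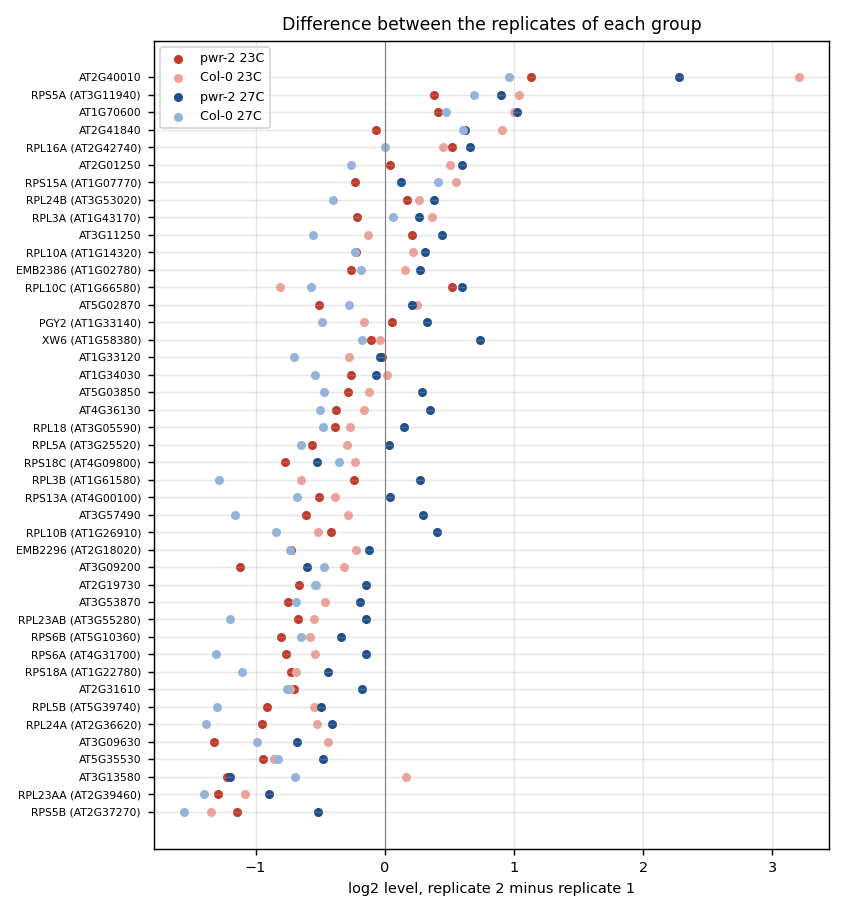
Difference in log2 level, replicate 2 minus replicate 1, for each of the 43 genes in the 4 groups. The 17 genes that are lower in replicate 2 in all 4 groups include RPS5B and RPL23AA at the bottom, and RPS5A and AT1G70600 lie right of 0 in every group.

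Some of the genes share sequence with other loci, which bears on how their fragments could be counted. Windows of 90 bases, the read length, were compared with the genome and all annotated transcripts of TAIR10.1. The L9 genes PGY2 (chromosome 1, 12023225 to 12024783, + strand, 3 exons) and AT1G33120 (chromosome 1, 12010879 to 12012547, + strand, 3 exons) lie near each other, and 55.3% and 51.3% of their windows occur elsewhere, mostly in the other gene. XW6 shares 13.8% of its windows with 3 further loci, and AT4G36130 206 of its 1146 windows with the gene AT4G36140. RPS15A shares 4.7% and RPL16A 3.7%. In 33 of the genes no window was shared. The split between PGY2 and AT1G33120 is uncertain, and the strand setting of the counting is not given in the sources used here.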

How the data were processed

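RNA of whole seedlings was sequenced as paired-end reads of 90 bases. The authors filtered ribosomal RNA reads, aligned the rest to TAIR10 with TopHat2 2.1.0 and Bowtie2 2.1.0, counted fragments per gene with featureCounts 1.4.5, and deposited them as raw counts with gene lengths, 1 table per temperature (versions per the submitters' processing notes). How reads with several matches were treated and the strand setting are not given in the sources used here. A deposited table of normalized values, with 8 value columns, was not used.

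Counts were tested with edgeR 4.0.16 in R 4.3.3 (TMM, filterByExpr, quasi-likelihood test, Benjamini-Hochberg adjusted p under 0.05), across all genes, with the replicate number as a block because the study's methods model a batch effect between replicates. As a check, differences between replicates correlated between groups at r from 0.260 to 0.654 over all genes, higher within a genotype than between genotypes. The block fits 1 replicate difference shared by the groups. A part of it that differs between genotypes therefore stays in the genotype comparisons. Pairwise comparisons used their own 4 libraries. The response difference, the genotype and the temperature averages used all 8, and these fits took the libraries as independent beyond the block. Standard errors were worked back from the test statistic. Log2 levels for replicate pairs used a prior count of 2. Shares of counts have 95% Wilson intervals for counting error only. The widest, for replicate 1 of Col-0 at 23°C, was 0.739% to 0.751%. FPKM is CPM per kilobase of deposited gene length. Total counts per library ran from 7379650 to 15733741.

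Alternatives were DESeq2 1.42.0 and its size factors, upper-quartile normalization, other filters, nuclear genes alone, no block, a stricter threshold, 1 fit of all libraries, log2(CPM + 1) differences and each library left out. Named genes were the highest and lowest of each subunit, in each comparison up to 3 that were highest and 3 lowest in fold change among those with 1 direction in both replicate pairs, and the members of the 5 families whose shares ranged most. Other genes were named after their values were seen. The genes and lists were chosen with earlier results of these data known. Lists were 176 other cytosolic ribosomal protein genes, 28 for ribosome assembly, 7 of the TOR pathway, 37 for plastid ribosomal proteins, 17 dividing cell, 12 root and 7 green shoot markers. Green shoot markers had a median log2 fold change of 0.29 in pwr-2 against Col-0 at 23°C and -0.17 at 27°C. Names came from the RefSeq annotation of TAIR10.1, which also gave the coordinates. Scripts were tested on simulated data, which had less spread than these data, so that test does not measure power or error here. Figures used matplotlib 3.10.9.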

Additional observations from a re-analysis of the deposited data

How the results depend on the processing

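No setting called any of the 43 genes in any of the 7 comparisons, with the replicate block or without it. Outside the libraries left out, the medians over the 43 genes moved by less than the spread between replicate pairs. In pwr-2 against Col-0 they lay between 0.31 and 0.35 at 23°C and between 0.05 and 0.08 at 27°C. With no replicate block they were 0.34 and 0.06, and on warming 0.01 in Col-0 and -0.21 in pwr-2. Counts over all genes moved more. At 27°C, 202 genes were called between genotypes, against 0 with upper-quartile normalization, a threshold of 0.01, all 8 libraries in one fit or no replicate block, 149 with nuclear genes alone, 380 with at least 10 counts in every library, 700 without a filter and 931 with DESeq2. On warming in pwr-2, 80 were called, against 36, 0, 0, 0, 586, 416, 685 and 636 in the same order. DESeq2 called 48, 37, 25, 908 and 25 genes, where edgeR called 0, for genotype at 23°C, warming in Col-0, the response difference, genotype over both temperatures and warming over both genotypes. For genotype over both temperatures 2 genes were called with upper-quartile normalization, without a filter, with at least 10 counts or with nuclear genes alone. For the response difference 223 genes were called without Col-0 23°C replicate 2.

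With each library left out in turn, in a fit of the other 7 where the lone library is assumed to vary like the rest, no gene of the 43 was called. Medians then ranged from 0.23 to 0.41 for genotype at 23°C, from -0.13 to 0.33 at 27°C, from -0.17 to 0.19 for warming in Col-0, from -0.42 to 0.01 in pwr-2, from -0.42 to -0.04 for the response difference, from 0.10 to 0.33 for genotype over both temperatures and from -0.22 to 0.039 for warming over both genotypes. Signs of single genes turned. On warming in Col-0, AT3G13580 (range -0.03 to 1.18) was -0.031 and RPL10C (-0.80 to 0.18) was 0.185 without Col-0 23°C replicate 1, and PGY2 (-0.04 to 0.52) was -0.042 without Col-0 27°C replicate 1. On warming in pwr-2, RPL10C (-0.22 to 0.73) was -0.054 without replicate 1 at 23°C and -0.224 without replicate 2 at 27°C. AT3G13580 (-0.22 to 0.48) was -0.17 without replicate 2 at 23°C and -0.22 without replicate 1 at 27°C, and RPS6A (-0.72 to 0.01) was 0.011 without that last library. In the response difference AT3G13580 (-1.06 to 0.13) was 0.133 without Col-0 23°C replicate 1. Over both genotypes PGY2 (-0.03 to 0.25) was -0.022 without pwr-2 27°C replicate 2 and -0.03 without Col-0 27°C replicate 1. The causes were not tested.

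Over nuclear genes alone the share of counts on the 43 genes in replicate 1 of Col-0 at 23°C was 0.799%, against 0.745% over all genes. Without division by gene length the median share of AT2G01250 in L7 was 67.1% and that of AT3G13580 32.9%, against 76.2% and 23.8%. Depth limits AT2G40010 most, with 1 count in its lowest library.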
